A study of Mus musculus with 6 samples.

Results

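The chromatin around 9 transcription factor genes that direct lineages other than bone was examined in osteoblasts with and without Fam20c. The cartilage factors were Sox5, Sox6 and Sox9, the fat factors Pparg, Cebpa and Cebpb, and the muscle factors Myod1, Myf5 and Myog. These 9 genes were taken by name, of 21887 protein-coding genes in the RefSeq annotation of the mouse genome (GRCm38, the assembly also called mm10). Peaks that shared at least 1 bp in any of the 6 libraries were merged into 89410 regions, and 118 of them overlapped a member gene span extended by 50 kb on each side.

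Osteoblasts, chondrocytes, adipocytes and skeletal muscle cells all derive from mesenchymal progenitors, and each fate is directed by its own transcription factors. SOX9 starts the cartilage program and SOX5 and SOX6 act with it on cartilage matrix genes. C/EBPβ acts early in fat cell formation and is followed by PPARγ and C/EBPα, while MYOD1 and MYF5 commit cells to muscle and myogenin carries their differentiation. ATAC-seq uses the Tn5 transposase to insert adapters where DNA is accessible, and a peak is a stretch with more insertions than its surroundings.

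The control group, OB Fam20c f/f, was an immortalized mouse osteoblast line that carries floxed Fam20c alleles, and OB Fam20c KO was made from it with a lentivirus that delivers Cre recombinase. FAM20C is the Golgi kinase that phosphorylates secreted proteins of the bone matrix. Each group had 3 libraries, each made from 50000 nuclei transposed for 30 min at 37 °C, and all cells grew in serum-supplemented α-MEM under 5% CO2 with no differentiation treatment stated. Nothing stated that the replicates came from separate cultures or the KO from more than 1 infection, so a p-value measures only the spread between these libraries, which may be technical, and Cre infection and loss of Fam20c cannot be told apart.

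The OB Fam20c f/f lists held 62781 to 74797 peaks and the first and second OB Fam20c KO lists 64141 and 64582, whereas KO replicate 3 held 32958. The lists give no read counts. The read totals in the supplement of the study were not used here, and in them the library with the short list was not the shallowest. Because of the short list, the comparisons between groups are also given without KO replicate 3. Each peak is given a standing, the percentile of its −log10 q in its own list, where 100 is the highest. The standing ranks significance within a list and is not a signal height. At Fam20c itself the region over the start (chr5:138754183-138756831) had a standing of 92.8, 94.8 and 93.0 in OB Fam20c f/f and of 97.8, 96.3 and 95.1 in OB Fam20c KO. None of the 3 regions in the Fam20c span was particular to 1 group by presence in all its libraries, so the peaks did not check the deletion, whose position in the gene is not given in the sources used here.

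The labelled cell type was checked with 9 osteoblast markers. A start peak, meaning a region within 1 kb of an annotated gene start, or of either end of the span where no start was given, was found in all 6 libraries at 4 of them (44.4%, against 53.4% of all protein-coding genes), namely Runx2, Sp7, Col1a1 and Spp1. Alpl and Dmp1 had it in 5 libraries, and Ibsp, Bglap and Phex in none. Among the 4 genes the start standing was lower in every KO library than in any f/f library at Runx2, Sp7 and Col1a1. This was so at 21.9% of all 11695 protein-coding genes with a start peak in every library, and the reverse at 6.22%. Without KO replicate 3 the same 3 genes were lower, which was so at 22.2% of these genes, and Spp1 was higher, which was so at 26.7%. At Sp7, the osterix gene, the values were 26.2, 41.0 and 50.9 in OB Fam20c f/f against 7.61, 4.61 and 6.61 in OB Fam20c KO. At Spp1, which encodes osteopontin, they were 77.9, 76.6 and 82.0 against 82.3, 83.8 and 74.3, so KO replicates 1 and 2 were above and KO replicate 3 below every f/f library. These genes were singled out after their values were seen.

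The start sequences that show how the members differed are those of Cebpa, Cebpb, Pparg and Myog, each from 250 bases before to 50 bases after a RefSeq start (GRCm38.p6). Peaks covered the Cebpa and Cebpb sequences in all 6 libraries and the Pparg and Myog sequences in none. Capitals mark in Cebpa the stretch between the f/f and the KO peak summits, in Cebpb and Pparg the matches to the GC box GGGCGG, to the CCAAT box or to the TATA motif TATAAA, and in Myog the matches to the E-box CANNTG, the site that muscle factors bind. Both strands were searched.
Cebpa, chr7:35119043-35119342, plus strand: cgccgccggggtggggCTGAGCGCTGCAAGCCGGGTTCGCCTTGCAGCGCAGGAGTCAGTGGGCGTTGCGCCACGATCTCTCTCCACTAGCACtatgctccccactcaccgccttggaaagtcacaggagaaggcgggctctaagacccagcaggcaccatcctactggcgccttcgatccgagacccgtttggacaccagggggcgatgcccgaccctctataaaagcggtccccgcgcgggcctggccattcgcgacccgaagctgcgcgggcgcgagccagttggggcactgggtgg
Cebpb, chr2:167688665-167688964, plus strand: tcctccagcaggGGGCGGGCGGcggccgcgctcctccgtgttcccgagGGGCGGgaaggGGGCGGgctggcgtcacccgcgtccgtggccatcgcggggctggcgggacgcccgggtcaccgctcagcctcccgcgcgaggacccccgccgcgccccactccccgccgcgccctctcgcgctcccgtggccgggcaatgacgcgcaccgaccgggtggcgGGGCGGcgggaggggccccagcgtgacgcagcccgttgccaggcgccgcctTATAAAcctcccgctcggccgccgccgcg
Pparg, chr6:115360894-115361193, plus strand: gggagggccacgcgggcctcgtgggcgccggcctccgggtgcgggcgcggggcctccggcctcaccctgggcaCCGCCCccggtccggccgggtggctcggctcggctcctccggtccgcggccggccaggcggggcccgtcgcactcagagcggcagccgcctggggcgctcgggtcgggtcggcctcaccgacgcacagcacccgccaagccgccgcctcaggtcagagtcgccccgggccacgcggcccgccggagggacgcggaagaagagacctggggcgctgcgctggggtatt
Myog, chr1:134289754-134290053, plus strand: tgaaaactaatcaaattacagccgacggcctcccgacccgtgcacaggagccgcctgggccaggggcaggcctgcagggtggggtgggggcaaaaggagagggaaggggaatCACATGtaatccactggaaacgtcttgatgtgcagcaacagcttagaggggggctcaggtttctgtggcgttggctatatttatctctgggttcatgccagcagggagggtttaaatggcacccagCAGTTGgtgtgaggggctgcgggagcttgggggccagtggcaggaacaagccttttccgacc

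The Cebpb sequence was 80.7% G or C with 5 matches to the GC box GGGCGG, the first pair of which overlapped each other, and its ratio of observed to expected CpG was 1.03. The Pparg sequence was as rich, at 80.3% G or C and a CpG ratio of 0.909, with 1 GC box. Over all 32851 start sequences, 80.1% of those with a CpG ratio of at least 0.6 lay under a peak in all 6 libraries and 13.5% in none. This Pparg sequence was thus among the smaller set, whereas the other 2 Pparg start sequences, also without a peak, had CpG ratios of 0.467 and 0.170. Of those with a ratio under 0.6, 12.3% lay under a peak in all 6 and 79.3% in none, and Myog, with a ratio of 0.373, was of that majority, as were the other 2 Pparg sequences. Cebpa had a CpG ratio of 0.853 and a TATAAA 30 bases before its start. The 2 Myog E-boxes began 138 and 12 bases before the start, and neither had the form CAGCTG, which CANNTG includes. Of all start sequences, 72.3% held the E-box, 16.3% its CAGCTG form, 37.4% the CCAAT box, 35.7% the GC box and 13.6% the TATA motif. In these 4 sequences there was no match to the AP-1 site TGANTCA, held by 7.81% of all, or to the SOX site ACAAT, held by 31.0%.

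Start peaks were present in all libraries at 2 of 3 cartilage factors, 2 of 3 fat factors and 0 of 3 muscle factors. Cebpa, Cebpb, Sox6 and Sox9 had one in 6 of 6 libraries, and Sox5, Pparg, Myf5 and Myog in 0. For Sox5 this holds for its annotated start, which lies inside the gene. At Myod1, 4 libraries had a region at the high-coordinate end of the span, which on the plus strand is the end of the gene and not its start. No library had a region within 1 kb of the other end of Myod1. For comparison, 53.4% of all protein-coding genes had one in all 6 and 38.0% in none. No member had a start peak in all libraries of 1 group and in none of the other. This was rare among all 21887 protein-coding genes, with 106 only in OB Fam20c f/f and 11 only in OB Fam20c KO.

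Cebpa held the highest start standing of the 9 genes. Its region (chr7:35118107-35119685) stood at 91.9, 94.1 and 94.8 in OB Fam20c f/f and at 93.6, 96.3 and 93.9 in OB Fam20c KO, so the groups overlapped. The standing hardly fell in KO replicate 3, the short list. Its −log10 q there was 73.4, against 142 to 391 in the other libraries. Sox9 had a region over the low-coordinate end of its span (chr11:112781281-112783165) with standings of 85.9, 90.6 and 88.7 in OB Fam20c f/f and 85.9, 86.0 and 74.7 in OB Fam20c KO. These ranges also overlapped. For Sox9 and Myod1 either end of the span was taken.

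At Cebpb the start region (chr2:167688209-167690193) covers the start and most of the gene, which has no intron. Its standing was 76.4, 75.5 and 72.9 in OB Fam20c f/f, and 86.3, 85.9 and 71.1 in OB Fam20c KO. KO replicates 1 and 2 were above every f/f library and KO replicate 3 below every one. Without KO replicate 3 the mean difference was 11.2 points. In that comparison of 5 libraries, 19.3% of the 46989 regions present in every list were higher in both KO libraries and 27.8% lower. Among the 11695 protein-coding genes with a start peak in all 6 libraries, the start was higher in both at 26.7% and lower at 22.2%.

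Sox6 spans 569.9 kb with 6 annotated starts, and 2 regions lay within 1 kb of any of them in all 6 libraries. The first (chr7:115824558-115826435) stood at 65.0, 64.7 and 67.6 in OB Fam20c f/f and at 60.1, 69.3 and 8.50 in OB Fam20c KO. The second (chr7:116039510-116040759), 766 bp from a start at the far end of the gene, was the highest of the window, with 64.4, 70.3 and 79.3 against 78.9, 73.1 and 48.5. Neither region separated the groups, and at both KO replicate 3 was the lowest library. The start sequence at the first region (chr7:115824661-115824960) lay under a peak only in KO replicates 1 and 2. The other Sox6 start sequences lay under no peak, so in the f/f libraries the start peaks of Sox6 lay beside these sequences. The Sox5 start in the annotation lies inside the gene and had no peak. At the high-coordinate end of the Sox5 span, where its longest transcript begins on the minus strand, a region (chr6:144781458-144782542) stood at 7.36, 27.6 and 47.3 in OB Fam20c f/f and at 22.1 and 29.6 in KO replicates 1 and 2, with no peak in KO replicate 3. The 5 values overlapped between groups.

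None of the 3 annotated Pparg starts had a peak within 1 kb in any library, nor within 2 kb. The small Myod1 region at the end of its span (chr7:46379064-46379501) had standings of 51.7 and 59.1 in f/f replicates 1 and 3 and of 41.4 and 41.0 in KO replicates 1 and 2. It was missing from f/f replicate 2 and from KO replicate 3. Myf5 had 1 region in its whole window (chr10:107501941-107503832), 15014 bp from its span and nearer to Myf6, the neighbouring muscle factor gene. Its standing was 57.5, 44.6 and 60.2 in OB Fam20c f/f and 35.6 and 59.3 in KO replicates 1 and 2. Myog had a region 1272 bp from its start (chr1:134288179-134288732) that stood at 6.53, 9.15 and 22.6 in OB Fam20c f/f and at 33.9 and 35.0 in KO replicates 1 and 2. At this weak region both KO libraries with a peak were above every f/f library. Without KO replicate 3 this was so at 19.3% of the 46989 regions present in every other list, and the reverse at 27.8%.

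**Figure D1:**
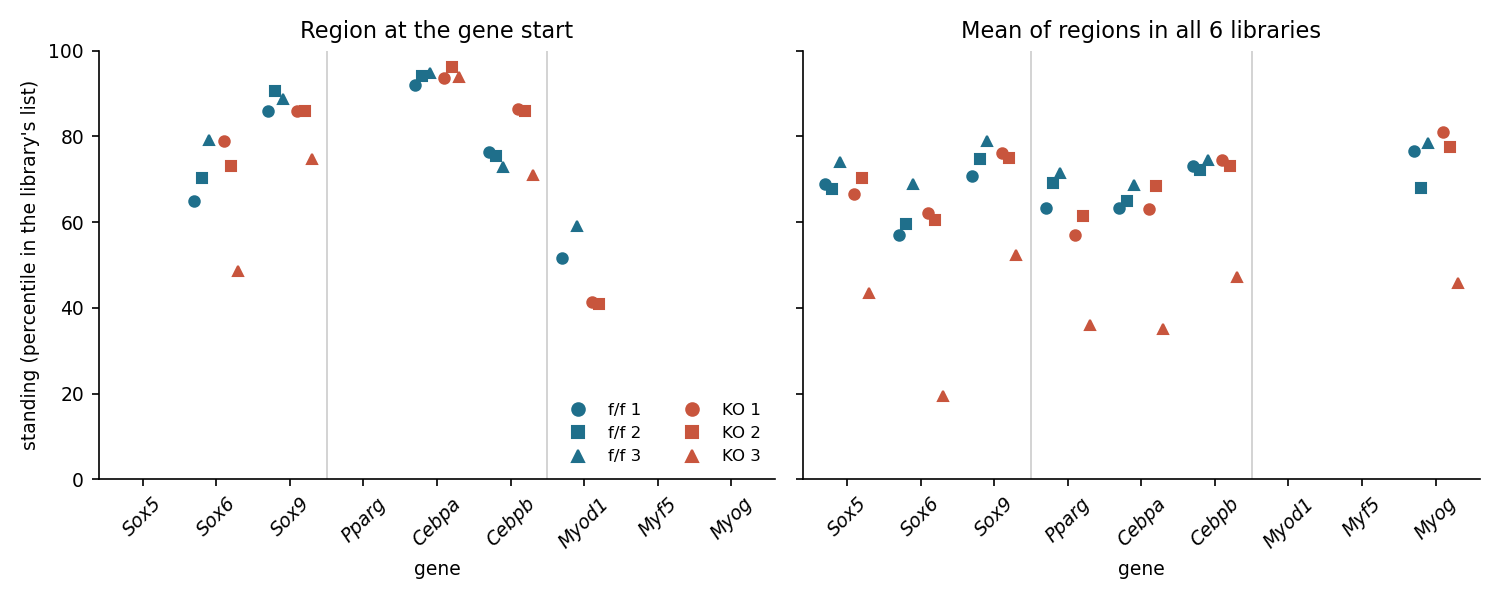
Standing of the region at the gene start, or at the span end for Myod1 (left), and mean standing of each gene's regions shared by the 6 libraries (right), in percentiles of each library's own list, by gene. Each point is 1 library, blue for OB Fam20c f/f and red for OB Fam20c KO, and an empty column means no such region. Cebpa stands above 91 in every library, and KO replicate 3 (red triangles) is the lowest library in most columns. Pparg, Myf5, Myog and Sox5 have no region at an annotated start, which for Sox5 lies inside the gene.

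The fat factors lay in the densest accessible chromatin of the 3 classes. The fat windows held 48 regions in all, or 11.1 per 100 kb, the muscle windows 14, or 4.53 per 100 kb, and the cartilage windows 56, or 3.06 per 100 kb, the latter spread over the long Sox5 and Sox6 genes. This order held in each of the 6 libraries. In OB Fam20c f/f the fat factors had 8.07, 7.84 and 9.45 regions with a peak per 100 kb, against 8.99, 8.07 and 3.92 in OB Fam20c KO. The muscle factors had 3.56, 2.91 and 3.56 against 3.88, 3.23 and 0.647. The cartilage factors had 1.86, 1.69 and 2.24 against 1.59, 1.69 and 0.601. Within classes the genes differed widely: Cebpb had 21.7 regions per 100 kb, at percentile 99.8 of all protein-coding genes, Cebpa 12.7, at percentile 86.8, and Pparg 5.66, at percentile 48.9. Sox9, Myod1 and Myog lay between percentiles 49.1 and 57.0, Sox6 at 30.6, Sox5 at 29.1 and Myf5, with 0.961 per 100 kb, at 17.0. The Cebpb window also holds Tmem189, and the highest region in it (chr2:167659695-167662217) overlaps that gene. This region stood at 90.7, 90.9 and 90.7 in OB Fam20c f/f and at 96.7, 94.8 and 79.3 in OB Fam20c KO, with KO replicates 1 and 2 above and KO replicate 3 below all f/f libraries. Without KO replicate 3, 19.3% of the 46989 regions present in every other list were higher in both KO libraries and 27.8% lower.

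Of the 118 regions, 29 had a peak in all 6 libraries (24.6%, against 33.4% of all regions) and 21 in all but KO replicate 3 (17.8%, against 19.2%). The number of regions with a peak was 80, 74 and 93 over the 9 genes in OB Fam20c f/f and 80, 76 and 30 in OB Fam20c KO. Without KO replicate 3 the groups overlapped.

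Sox9 and Myod1 were the 2 genes with fewer regions in every KO library than in any f/f library. This was so at 12.8% of the 18960 protein-coding genes with a region within 50 kb, and the reverse at 0.058%. Sox9 had 4, 4 and 6 regions in OB Fam20c f/f and 3, 2 and 2 in OB Fam20c KO, a difference of -2.33 (exact permutation test, two-sided p = 0.1, the smallest that 3 against 3 libraries can give; Benjamini-Hochberg adjusted p = 0.45 over the 9 genes). Its 2 regions in all 6 libraries made up most of the KO count, and the other 4, with standings between 2.52 and 23.5, were near the bottom of the lists. Without KO replicate 3 the Sox9 difference was -2.17, and with the same number of peaks from each list it was 0.

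Myod1 had 6, 5 and 6 regions in OB Fam20c f/f and 4, 4 and 0 in OB Fam20c KO, a difference of -3.0 (exact permutation test, two-sided p = 0.1, adjusted p = 0.45). Without KO replicate 3 the difference was -1.67, and with equal numbers of peaks from each list it was -2.0. Within 10 kb of the gene the difference was -0.333. Myog had 4, 3 and 4 regions in OB Fam20c f/f and 7, 5 and 2 in OB Fam20c KO, so without KO replicate 3 both KO libraries were above every f/f library. Among all genes this was so at 4.73% without that library, and the reverse at 12.9%.

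The other 6 genes overlapped between groups. Sox5 had 19, 16 and 22 regions in OB Fam20c f/f and 17, 16 and 6 in OB Fam20c KO. Sox6 had 11, 11 and 13 against 9, 13 and 3. Pparg had 10, 8 and 11 against 10, 10 and 3. These counts overlapped also without KO replicate 3. Cebpa had 8, 9 and 11 against 10, 9 and 5, Cebpb 17, 17 and 19 against 19, 16 and 9, and Myf5 1 in each library but KO replicate 3. For these 6 genes and Myog the adjusted p from the exact permutation test was at least 0.787.

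**Figure D2:**
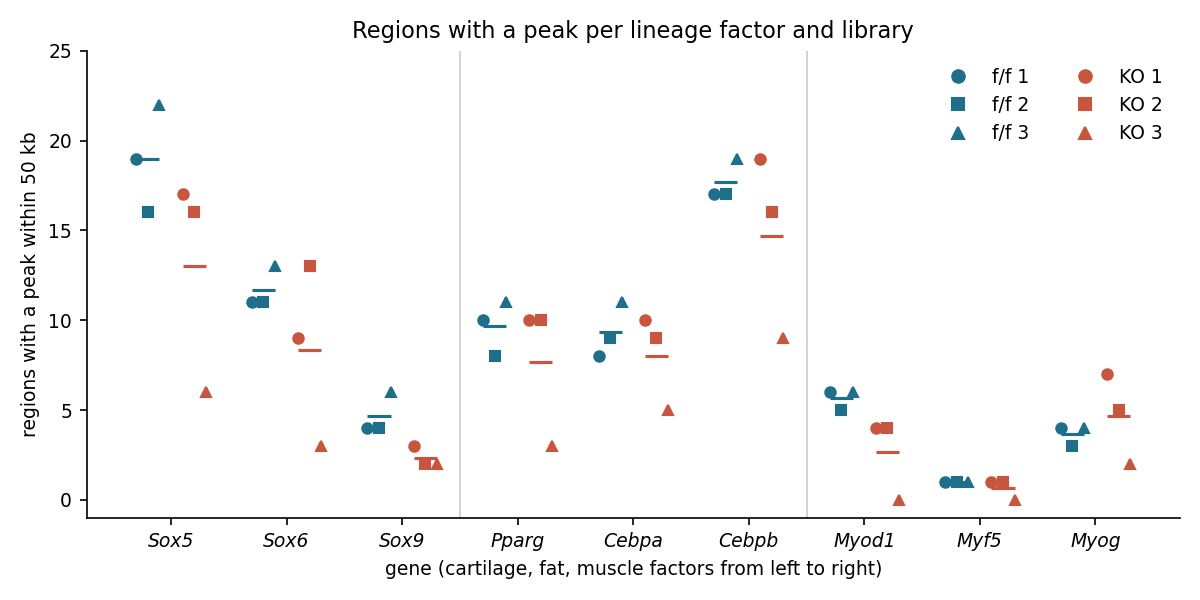
Number of regions with a peak within 50 kb of each gene, per library. Points are libraries (blue OB Fam20c f/f, red OB Fam20c KO) and bars the mean of 3 libraries. The 2 groups are apart at Sox9 and Myod1, and KO replicate 3 is the lowest KO library or tied for it at each gene.

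Presence in all libraries of 1 group set 7 regions apart as only in OB Fam20c f/f (5.93% of the 118, against 3.75% of all regions) and 0 as only in OB Fam20c KO (against 0.179%). The 7 were 2 at Sox5, 1 at Sox6, 1 at Pparg, 1 in the Cebpb window and 2 in the Myod1 window. The one with the highest standing lay 38466 bp from Myod1 (chr7:46337247-46338008), nearest to Otog, a gene of the inner ear. It stood at 68.8, 61.6 and 70.0 in OB Fam20c f/f, with a fold over local background of 12.5, 8.32 and 11.6, and no KO library had a peak there. This mean standing of 66.8 ranked 27 among 3352 regions of this presence pattern, whose median was 24.9, and the pattern held with equal numbers of peaks from each list. The other Myod1 region (chr7:46422901-46423243), which overlaps Kcnc1, stood at 45.4, 19.5 and 18.6.

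Both such Sox5 regions lay inside the gene. The first (chr6:144604722-144605138) stood at 10.0, 3.60 and 5.83 and the second (chr6:144640292-144640936) at 10.0, 15.0 and 30.7, low in all f/f lists. The Sox6 region (chr7:115548052-115548700), also inside its gene, stood at 15.4, 27.6 and 34.4. The Pparg region (chr6:115333021-115333539), 27340 bp from the span, stood at 20.6, 25.7 and 41.0. In the Cebpb window the region (chr2:167656505-167656834) overlapped Tmem189 and stood at 19.3, 0.194 and 19.2. None of these 5 regions, nor the Myod1 window region at Kcnc1, was in any list once each was held to 32958 peaks. That cut drops the peaks of lowest standing from the longer lists, so it adds nothing to the low standings of these regions. In the 5 Mb bins around these regions, 3.79% to 8.75% of the regions found in all f/f libraries were only in OB Fam20c f/f, against 6.25% over the genome.

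The first and second KO libraries alone shared 4 regions (3.39%, against 2.72% of all regions). In the Myog window such a region, which overlaps Ppfia4 (chr1:134336412-134336773), stood at 43.5 and 39.8. The other 3 stood lower: 22.1 and 24.3 inside Sox6 (chr7:115500272-115500564), 15.4 and 14.4 at 6966 bp from Cebpa (chr7:35128894-35129496), and 15.3 and 9.81 at 5494 bp from Cebpb (chr2:167695926-167696456). All 4 were missing from KO replicate 3 and thus were not counted as only in OB Fam20c KO.

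**Figure D3:**
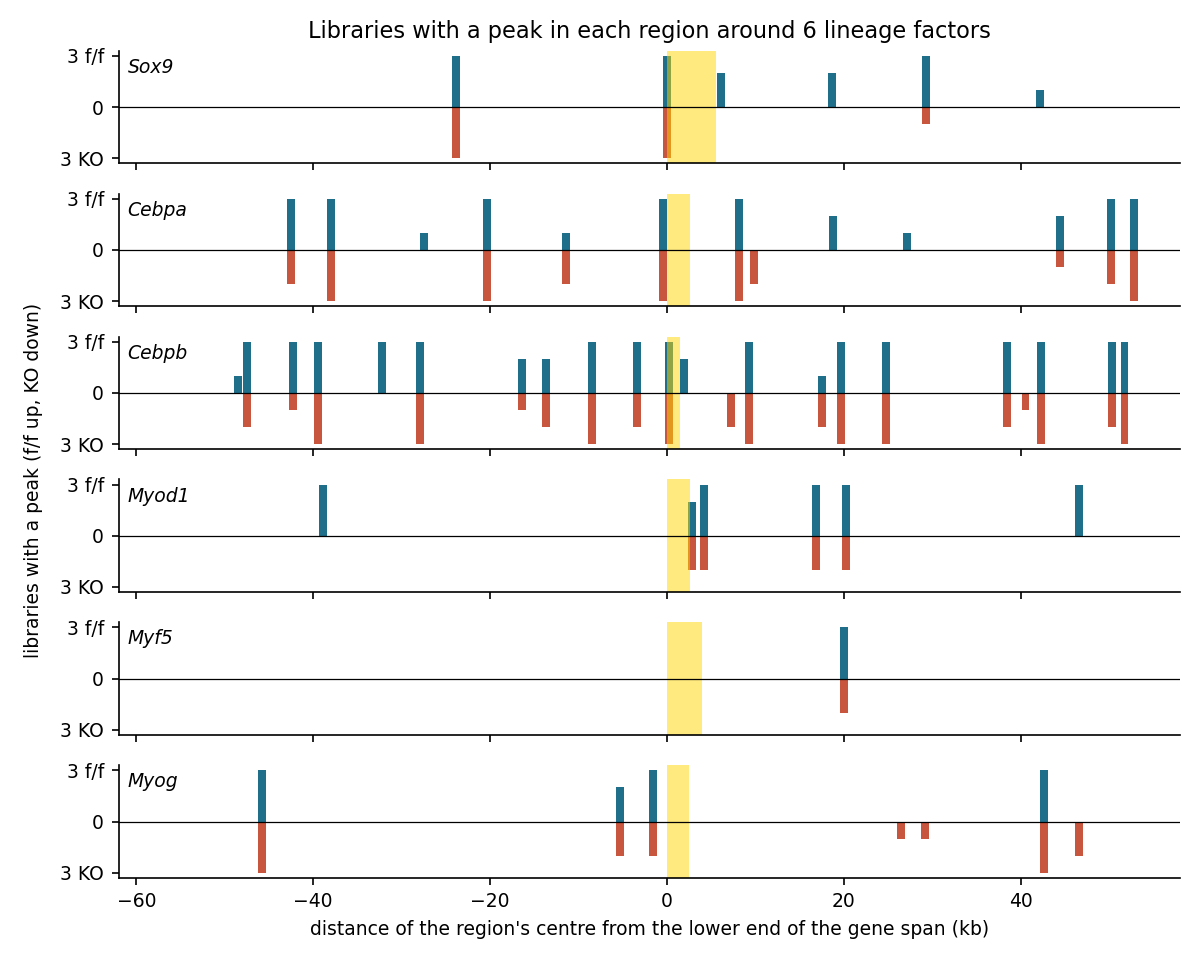
Libraries with a peak in each region around the 6 members with short spans, by distance in kb of the region's centre from the low-coordinate end of the gene (gold, the gene span). Blue bars up count OB Fam20c f/f libraries and red bars down OB Fam20c KO libraries. Myod1 has 2 regions with 3 f/f and 0 KO libraries, Myf5 has 1 region in all, and Cebpb has 22.

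**Figure D4:**
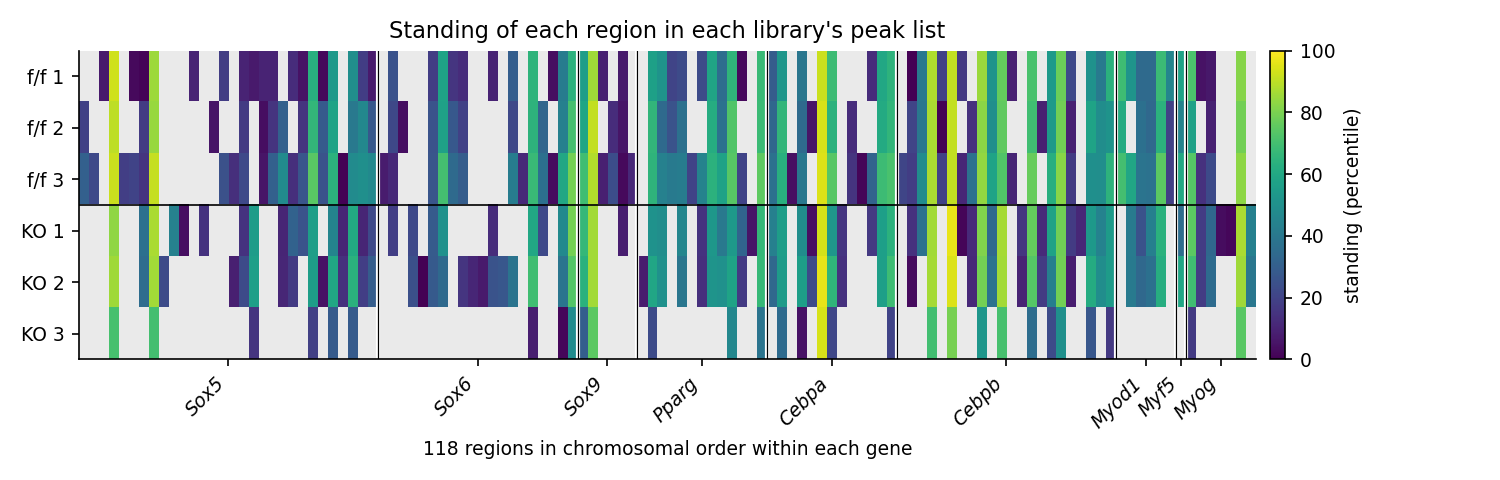
Standing (colour, percentile in the library's own list) of the 118 regions in chromosomal order within each gene, by library; grey means no peak. The KO replicate 3 row has 30 regions, against 74 to 93 in the other libraries. Bright columns run through all rows at Cebpa and Cebpb, and also at Sox5, Sox9 and Myog.

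Among regions with a peak in every library, standings overlapped between the groups at most genes. Of the 29, 6 were lower in every KO library (20.7%, against 25.5% of all 29849 such regions) and 0 higher (against 3.62%). The 6 were 2 at Sox5, 2 at Pparg and 2 in the Cebpb window. Of the 50 regions in the other 5 libraries, 12 were lower and 8 higher in both KO replicates 1 and 2 (24.0% and 16.0%, against 27.8% and 19.3% of all such regions). The median standing of the 29 was 65.3, 66.2 and 73.9 in OB Fam20c f/f and 66.6, 68.9 and 35.1 in OB Fam20c KO, below the medians of all such regions, 75.9 to 79.7 in OB Fam20c f/f and 76.5, 76.8 and 54.4 in OB Fam20c KO.

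Pparg was the 1 gene of 7 with such regions whose mean standing was lower in every KO library, which was so at 24.2% of protein-coding genes, with the reverse at 1.03%. It was again the 1 gene that was lower without KO replicate 3, against 24.3% of genes lower and 19.1% higher. Its 3 shared regions averaged 63.3, 69.0 and 71.5 in OB Fam20c f/f and 57.0, 61.4 and 35.9 in OB Fam20c KO, a difference of -16.5 points (exact permutation test, two-sided p = 0.1, adjusted p = 0.7 over the 7 genes). Over the same 3 regions it was -8.68 without KO replicate 3. Ranked only among regions in all 6 libraries, the Pparg difference was -9.17 points (exact permutation test, two-sided p = 0.2). The Pparg groups then overlapped, whereas those of Sox5 were apart, with -4.57 points (exact permutation test, two-sided p = 0.1). The share of all genes that were apart under this ranking was not computed, so how common this is cannot be said. The region 2548 bp beyond the Pparg span (chr6:115492952-115494311) stood at 65.3, 72.8 and 74.0 in OB Fam20c f/f and at 53.7, 58.2 and 46.2 in OB Fam20c KO. Here the groups did not overlap, though the gap between them was smaller than the range within either group, and the mean difference was -18.0 points, or -14.8 without KO replicate 3.

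At Sox5 the highest region (chr6:143915772-143916994) lay 30112 bp from the annotated start. It stood at 92.6, 90.2 and 91.9 in OB Fam20c f/f and at 83.5, 85.8 and 70.8 in OB Fam20c KO, without overlap, a difference of -11.5 points, and of -6.90 without KO replicate 3. The highest Myog region (chr1:134331821-134333438), which overlaps Ppfia4, stood at 81.8, 78.8 and 83.2 against 87.5, 85.8 and 74.5. There KO replicates 1 and 2 lay above the f/f libraries and KO replicate 3 below. Without KO replicate 3, both KO libraries were higher at 19.3% of the 46989 regions present in every other list and lower at 27.8%. The gene means of Sox5, Sox6, Sox9, Cebpa, Cebpb and Myog differed by -14.4 to -6.25 points with all libraries (exact permutation p at least 0.4). Over the same regions without KO replicate 3 these means differed by -1.87 to 4.95 points, with no test run. Myod1 and Myf5 had no region in all 6 libraries.

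Within the Cebpa start region the summit, the base of highest signal, lay at different positions in the groups. It was 234 bases before the start in all 3 f/f libraries, and 165, 158 and 166 bases before it in OB Fam20c KO, so the groups were 68 bp apart while the f/f libraries gave the same base and the KO libraries lay within 8 bp. The stretch of 77 bases between these positions is in capitals in the Cebpa sequence. Summits were compared after those of Cebpa had been seen. Of 26 member regions with exactly 1 peak in every library, the groups' summits were apart in 4, of which 3 were in the Cebpa window and 1 in that of Cebpb. This was so in 12.6% of all 27022 such regions, with a median gap of 29.0 bp, and the gap was at least 60 bp in 25.8% of those. The summits were apart in 6 of the 26 without KO replicate 3, against 20.7% of all such regions, and the gap at the Cebpa start was 69 bp. The Cebpb window region (chr2:167713221-167714161) had f/f summits within 2 bp of each other and a gap of 63 bp to the nearest KO summit. The other 2 Cebpa regions had gaps of 3 and 16 bp, smaller than the spread within either group.

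**Figure D5:**
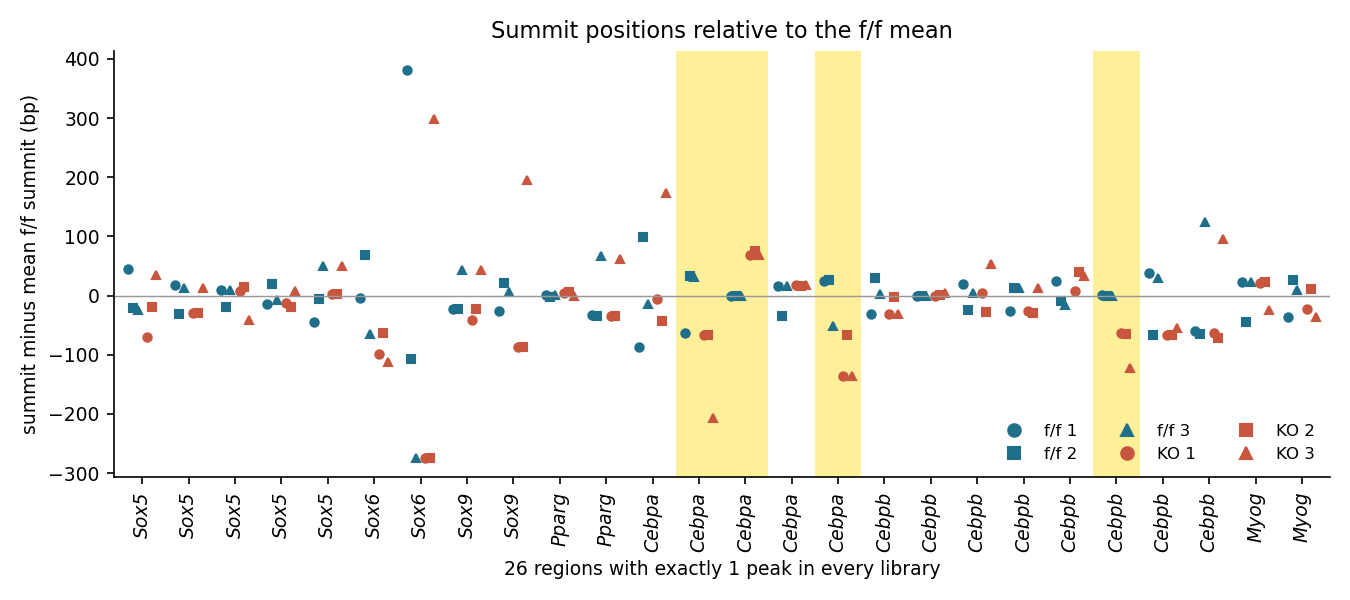
Summit position of each library relative to the mean f/f summit (bp, in genome coordinates' direction) for the 26 member regions with exactly 1 peak in every library. Gold columns are the 4 regions whose groups do not overlap. At the Cebpa start (the second gold column) the blue points coincide and the red points lie about 71.0 bp higher on average.

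Genes of the same programs were read at their starts, from lists chosen with earlier results known, beside 53.4% of all protein-coding genes with a start peak in all 6 libraries and 38.0% in none. Of 12 cartilage genes, 5 had a start peak in all 6 libraries and 4 in none, with the highest start standing at Comp, a cartilage matrix protein (mean 90.9), and Trps1, a repressor in growth plate chondrocytes (75.2). Of 13 fat genes, 4 had it in all and 7 in none, with the highest at Klf5 (90.3) and Cebpd (90.3), both early factors of fat cell formation. Of 14 muscle genes, 6 had it in all and 7 in none, with the highest at Mef2a (93.3), a partner of the MYOD family. No gene of the 3 lists had a start peak in every library of 1 group and in none of the other. Of all 21887 protein-coding genes, 106 had one only in OB Fam20c f/f and 11 only in OB Fam20c KO.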

How the data were processed

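The 6 ATAC-seq peak lists, 3 per genotype, were used as deposited. Per the study's methods, the authors trimmed reads, aligned them to mm10 (BWA) and ran MACS2 2.1.2 with a q-value limit of 0.05, giving for each peak a score, a fold over the local background, −log10 p, −log10 q and a summit, all as the authors deposited them, with 1 list per library. The lists hold no read counts, so no count test was possible, and a missing peak shows only that none passed the authors' threshold.

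The 9 members and the gene lists were chosen with earlier results of these data known. Peaks were merged at 1 bp, standings computed by −log10 q, and regions taken within 50 kb of RefSeq spans. Named were the region at each start, the highest region and every region only in 1 group. Groups were compared by presence and by exact two-sided permutation over the 20 assignments of libraries, with Benjamini-Hochberg adjustment. Scripts ran in Python 3.11.15 with numpy 2.4.6 and pandas 2.3.3, and were tested on simulated data. Alternatives were minimum −log10 q, equal list lengths, overlap, window, nearest gene, ranking, start distance, pairing and libraries left out. The KO replicates 1 and 2 patterns, the summit comparison, the shares without KO replicate 3 and the start at both span ends were added after seeing the data. The Sox9 and Myod1 start sequences were not used here. The highest region of the Pparg window and the second muscle gene by start standing, which the naming rule includes, are not reported here.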

Additional observations from a re-analysis of the deposited data

How the results depend on the processing

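The count of regions only in OB Fam20c f/f depended most on the lists. It was 7, and became 4 with peaks of −log10 q of at least 5, 2 with equal numbers of peaks per list, 3 in a window of 10 kb, 4 with only regions nearest to the member, and 7 to 12 with 1 library left out (12 without f/f replicate 2, 11 without KO replicate 1). Regions only in OB Fam20c KO went from 0 to 2 with equal lists, where 2.60% of all regions were such and 2.83% only in OB Fam20c f/f, and ranged from 0 to 4 with 1 library left out (4 without KO replicate 3, 1 without f/f replicate 1). The 118 regions became 41 with equal lists and 68 within 10 kb, and 111 to 118 with 1 library left out. Start peaks were in all 6 libraries at 4 members under each distance, and at 4 with both span ends added. Members without a start peak in any library went from 4 to 3 within 2 kb, where Myog had one in 5 libraries. Myod1 was not among the 4 only because of the region at the end of its span. They also went to 3 with both span ends added, where Sox5 had one in 5 libraries. The difference in number of regions turned positive with equal lists at Sox5 (1.33) and Cebpa (0.667), and at Cebpa within 10 kb (0.667). It turned negative at Myog within 10 kb (-0.333), within 100 kb (-1.33) and for nearest regions (-0.333). With 1 library left out it ranged from -3.17 to 0.333 at Pparg, from -2.33 to 0.167 at Cebpa and from -0.167 to 2.33 at Myog. The standing difference became 0.118 at Sox9, 0.838 at Cebpb and 5.59 at Myog when ranked among regions in all 6 libraries, and with 1 library left out ranged from -11.1 to 0.818 at Sox9, from -12.7 to 10.5 at Myog and from -21.4 to -2.57 at Pparg. The Pparg value of -2.57 is that without KO replicate 3, over regions in the other 5 libraries. The causes were not tested. No alternative reached p under 0.05, which this design does not allow.

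With the replicate number as a block (replicate block, exact sign-flip permutation, smallest p 0.25) the differences were those of the unpaired test, -2.33 regions at Sox9 and -3.0 at Myod1, each with p = 0.25. Deviations from the group means had correlations of -0.0857, -0.214 and -0.379 over regions between libraries of the same number. With each f/f library, KO replicate 3 had the sign opposite to that of KO replicates 1 and 2. This check therefore cannot decide whether the numbers are pairs, and the main tests did not take them as pairs.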

Other observations

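With each list held to 32958 peaks, 2 member regions were in all KO libraries and no f/f library, and 2 the reverse. This setting drops the lower peaks of the longer lists and keeps every peak of KO replicate 3. It can therefore make a region appear only in OB Fam20c KO by removing its f/f peaks. The standings given here are those in the full lists. Inside Sox5 (chr6:144602742-144603315) a region stood at 7.36 in f/f replicate 1, had no peak in the other f/f libraries, and stood at 55.3, 56.5 and 15.5 in OB Fam20c KO. Near Cebpa (chr7:35098547-35099379) a region stood at 39.2, 34.4 and 39.9 in OB Fam20c f/f and at 48.8, 56.1 and 5.02 in OB Fam20c KO. The reverse held for the Myod1 window region near Otog and for a region 3072 bp from Cebpb (chr2:167685153-167685843) that stood at 51.5, 49.7 and 58.1 in OB Fam20c f/f and at 33.9 and 37.7 in KO replicates 1 and 2. The Sox5, Cebpa and Cebpb regions were picked after this alternative was run, and their differences were not tested.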
